A study of Erythranthe pardalis x Erythranthe guttata and Erythranthe pardalis with 20 samples.

Results

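Hybrid seeds of 2 ages, 6 and 8 days after pollination (DAP), were compared across all annotated genes. The comparison used the 4 libraries labelled 6 DAP and the 4 libraries labelled 8 DAP, 8 of the 20 RNA sequencing libraries of a developmental series that also holds unpollinated ovules and seeds of 2 and 4 DAP. Both ages came from the same cross, SEC39 x CSS4, in which the selfing monkeyflower Mimulus pardalis (inbred line SEC39) was the seed parent and Mimulus guttatus (inbred line CSS4) the pollen parent, and no treatment separated them other than age. Whole seeds were freed from sectioned fruits, so that every library mixes embryo, endosperm and the maternal seed coat, and the study's methods allow for a little adhering placenta. In such mixed tissue a fall can come from fewer cells of a kind or from less RNA in each cell, and the counts cannot tell these apart. The study's methods tie replicates 1 to 4 at both ages to maternal plants 1 to 4, whereas the sample labels describe pools from different plants. P-values therefore measure spread between pools, and in the main fit that spread was estimated over all 20 libraries, not over these 8 alone.

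As background, a young seed first builds its compartments and then fills them. The embryo passes from a globular to a heart shape, the endosperm, which in Mimulus forms cell walls from its earliest divisions, proliferates around it, and the seed coat thickens its walls. In Arabidopsis, where the genes were characterised, maturation is switched on by regulators such as LEC1, L1L, ABI3 and FUS3 and by WRI1, which drives fatty acid synthesis, and it loads the seed with 12S and 2S storage proteins and with oil held in oleosin-coated bodies. Thick secondary walls are made of cellulose, xylan and lignin under NAC and MYB transcription factors. By the study's histology the younger seeds held late globular embryos and the older seeds heart-stage embryos. Gene names below are those of the Arabidopsis thaliana homologue that the study's tables give for a Mimulus gene.

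The 8 libraries held between 11002428 and 13738213 counts. Levels are normalised CPM (a gene's counts scaled to a common library size, with TMM scaling, which corrects for library composition) and are not divided by gene length, so they compare a gene between libraries and not genes with each other. Detection at a CPM of at least 1 covered 17725 to 18082 genes at 6 DAP and 16813 to 17425 genes at 8 DAP. The mean was 17922 ± 157 (SD, n = 4) at 6 DAP and 17088 ± 291 (SD, n = 4) at 8 DAP, a difference of -834 genes without overlap between the ages (two-sided exact permutation test, p = 0.0286, the smallest that 4 against 4 allows). With TMM-scaled CPM the difference shrank to -258.5 genes (p = 0.0857, exact permutation test), so that this difference depended on the scaling. The 100 most abundant genes of a library took 20.7% to 23.8% of its counts at 6 DAP and 22.8% to 25.3% at 8 DAP, which overlapped (p = 0.0857, exact permutation test). Replicates of an age correlated at 0.968 to 0.980 at 6 DAP and at 0.942 to 0.968 at 8 DAP over log2 CPM of the genes tested, against 0.817 to 0.928 between the ages.

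The 4 seed pools of an age did not lie equally far between the ages. For each library in turn, genes were called between the ages without it, and its level was then placed between the mean of the other 6 DAP libraries (0%) and the mean of the other 8 DAP libraries (100%). The median position of 6 DAP replicates 1, 2 and 4 was -3.57%, -1.52% and -4.71%, whereas 6 DAP replicate 3 stood at 18.6% over 2332 genes. At 8 DAP, replicates 1, 3 and 4 stood at 95.5%, 111% and 112%, and replicate 2 at 68.4% over 2708 genes. Both directions shared this order. In 8 DAP replicate 2, genes that rose stood at 67.6% and genes that fell at 69.2%. Results that rest on 6 DAP replicate 3 or 8 DAP replicate 2 are therefore also given without them. Whether these pools differed in stage or in tissue make-up was not tested.

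**Figure D1:**
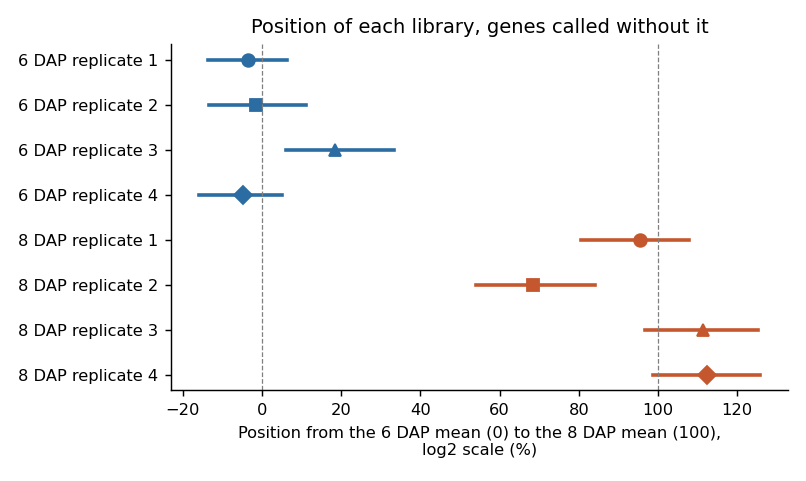
Position of each of the 8 libraries between the mean 6 DAP and mean 8 DAP level, in percent on the log2 scale, over genes called between the ages without that library. Points are medians over genes and bars the middle 50% of genes. Replicate 3 lies at 18.6% at 6 DAP and replicate 2 at 68.4% at 8 DAP, between the other libraries of the 2 ages.

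Between 6 and 8 DAP, 2892 of 20242 genes tested changed when the false discovery rate (FDR) was held at 0.01, which is 14.3%. Of these, 1522 rose (7.52% of genes tested) and 1370 fell (6.77%) in edgeR's quasi-likelihood test with a spread shared over all 20 libraries. Most called changes were large. A call at this FDR favours large changes, so their size says little on the genes not called. The median log2 fold change was 1.75 among genes that rose and -1.96 among genes that fell, and 1404 and 1267 of them changed at least 2-fold. The 4 libraries of each age did not overlap in 1509 of the rises and 1351 of the falls, and 48.5% of all genes tested showed no such overlap. The count moved with the fit. Fitted on the 8 libraries alone it was 7480 (37% of 20194 genes; 3800 rose and 3680 fell), and with the maternal plant as a block on all 20 libraries it was 4241 (2129 rose and 2112 fell). Over single left-out libraries the count ran from 1768 (without 6 DAP replicate 4) to 2708 (without 8 DAP replicate 2), and it was 1832 without 6 DAP replicate 1, 1925 without 6 DAP replicate 2, 1804 without 8 DAP replicate 3 and 1814 without 8 DAP replicate 4. Scaling by library totals alone moved the median of all genes from -0.07 to -0.44 on the log2 scale and turned the split to 905 rises and 1624 falls, 35.8% in place of 52.6% rises. Changes below are therefore relative to TMM scaling. With both 6 DAP replicate 3 and 8 DAP replicate 2 left out, a setting chosen after the data were seen, 2204 genes changed (1149 rose and 1055 fell).

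**Figure D2:**
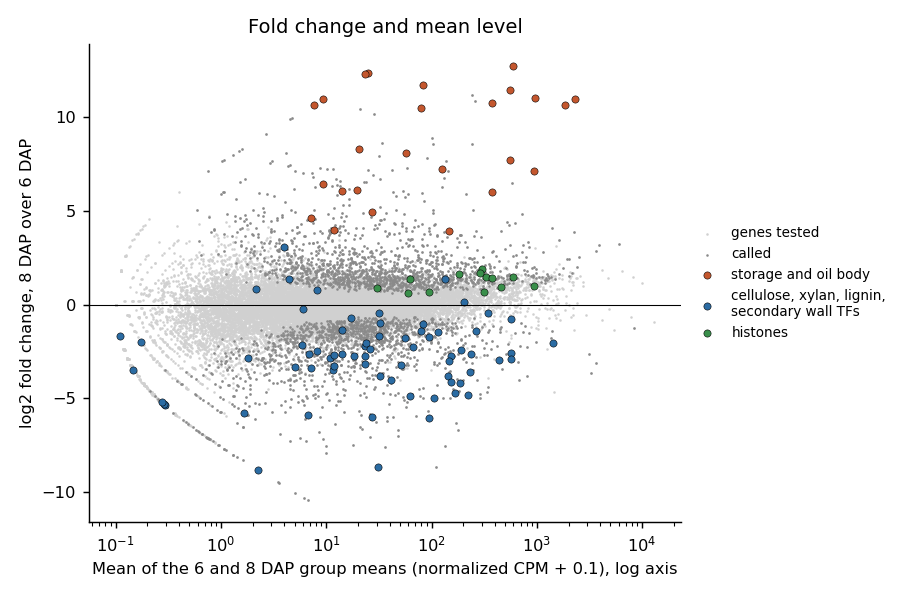
Log2 fold change from 6 to 8 DAP (vertical) against the mean of both group means in normalised CPM + 0.1 (horizontal, log axis) for 20242 genes. Coloured points mark storage and oil body genes, which lie between 3.92 and 12.71, secondary wall genes, of which 35 of 69 were called lower, and histones, all above 0.

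Genes for seed reserves rose. All 14 tested seed storage protein genes (12S cruciferins, 2S albumins of the SESA group and vicilin-like proteins) rose, as did 11 of 11 tested oil body genes and 7 of 8 tested late embryogenesis and desiccation genes. Together, 32 of 33 tested members were called higher and none lower, against 7.52% of all genes, with a median log2 fold change of 7.93 beside -0.07 over all genes tested. None of the 14 storage genes and 3 of the 12 listed oil body genes came from the part of the study's tables that was not selected on these samples, so the direction of these counts is not independent evidence. All 14 storage genes averaged below 1 CPM in ovules and at 2 and 4 DAP, and most of them did at 6 DAP. Several oil body and late embryogenesis genes were as low. Such members passed the filter on CPM mainly through their 8 DAP libraries, and Migut.J01038 and Migut.N02035 did so only through these. They could hardly have been called lower, so the comparison with all genes was largely set in advance. Without 6 DAP replicate 3 and 8 DAP replicate 2 together, 14 storage, 10 oil body and 7 late embryogenesis genes were called higher. Storage genes took 0.000231% to 0.00265% of library counts at 6 DAP and 0.0719% to 1.69% at 8 DAP.

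Cruciferins are the 12S globulins of Arabidopsis seeds. The homologue Migut.D00425 had the largest rise among genes without overlap between the ages and with a group mean of at least 30 CPM. Its level was 0, 0, 0.441 and 0.262 CPM in 6 DAP replicates 1 to 4 and 521, 55.5, 2061 and 2065 CPM in 8 DAP replicates 1 to 4, a log2 fold change of 12.71 ± 1.17 (SE) with an FDR of 1.07e-06 in edgeR's quasi-likelihood test. Here and below, a value with ± in brackets is the log2 fold change from 6 to 8 DAP with its SE from this fit. Replicates 3 and 4 at 8 DAP stood together at the top, replicate 1 below them, and replicate 2 lowest, yet every 8 DAP library lay above every 6 DAP library. A second copy, Migut.D00426, stood at 0.164, 0.428, 3.08 and 0.174 CPM and then at 1063, 156, 3380.4 and 3143 CPM (log2 fold change 10.99 ± 1.10, FDR 1.70e-06). Here 6 DAP replicate 3 was above its group. The remaining listed homologues of the same cruciferin locus, Migut.G00511, Migut.G00513 and Migut.G00514, rose by log2 fold changes of 8.04, 10.72 and 11.44. Replicate 2 was the lowest of the 8 DAP libraries in each.

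The 2S albumins, small sulphur-rich storage proteins, followed the same pattern. Migut.M01806 (SESA3) was at 0.0821, 0.0714, 9.25 and 0 CPM at 6 DAP and at 3267, 225, 7488 and 7366 CPM at 8 DAP (log2 fold change 10.95 ± 1.65, FDR 9.21e-05), and its neighbour in numbering Migut.M01805 (SESA5) at 0.0821, 0.0714, 9.16 and 0.0872 CPM and 2639, 183, 6092 and 5833 CPM (log2 fold change 10.63 ± 1.63, FDR 1.46e-04). In both genes the only 6 DAP library with more than trace counts was replicate 3. Migut.J01035 (SESA4), at 0 to 0.0821 CPM in the 6 DAP libraries, reached 102, 9.04, 277 and 273 CPM. Where no count fell in any 6 DAP library, the fold is a bound against 3 counts over the group. It was at least 290.4-fold higher for Migut.J01038 (SESA4) and at least 235-fold higher for Migut.J01041 (SESA5). The vicilin-like PAP85 homologues Migut.N02035 and Migut.O00476 were at 0 in all 6 DAP libraries and in 8 DAP replicate 2, and at 19.4, 0, 88.7 and 90.0 CPM and 20.5, 0, 92.1 and 73.7 CPM in the 8 DAP libraries, at least 762-fold and 716-fold higher (FDR 0.00666 and 0.00243). With the spread taken from the 8 libraries alone, 10 of the 14 storage genes were called. The call of Migut.N02035 was lost without 6 DAP replicate 1, 2, 3 or 4 or 8 DAP replicate 1, 3 or 4 (FDR 0.0121 to 0.0179). Without 8 DAP replicate 2 all 14 storage genes were called.

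Oil body proteins also rose. Oleosins coat the oil droplets of seeds. Of the OLEO1 homologues, Migut.F00529 went from 6.90, 5.35, 36.8 and 4.80 CPM to 1348, 476, 2794 and 2824 CPM (log2 fold change 7.11 ± 0.88, FDR 1.38e-05) and Migut.A00172 from 5.42, 2.85, 30.9 and 8.20 CPM to 684, 161, 1002 and 1127 CPM (log2 fold change 5.97 ± 0.70, FDR 8.23e-06). The third, Migut.A01025, had the smallest rise of the group, 28.7, 13.4, 11.1 and 19.7 CPM against 149.5, 33.3, 467 and 453 CPM (log2 fold change 3.92 ± 1.0, FDR 0.0067), and here 6 DAP replicate 3 was the lowest of its age while it was the highest of its age for the other 2 OLEO1 homologues. Its call was lost without 6 DAP replicate 1, 2, 3 or 4 or 8 DAP replicate 3 or 4 (FDR 0.0157 to 0.0248), and with the maternal plant as a block (FDR 0.0283). The oleosin family gene Migut.K01392 rose by 7.72 ± 0.87, the caleosin homologue Migut.G00483 (CLO1) by 4.92 ± 0.52 and the seipin-like Migut.F02134, of a family that shapes lipid droplets, by 6.10 ± 0.83 on the log2 scale. The other 5 oil body genes that rose, 2 of them homologues of the caleosin RD20, had log2 fold changes of 4.6 to 8.28. A further RD20 homologue, Migut.B00702, was not tested because of low counts.

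**Figure D3:**
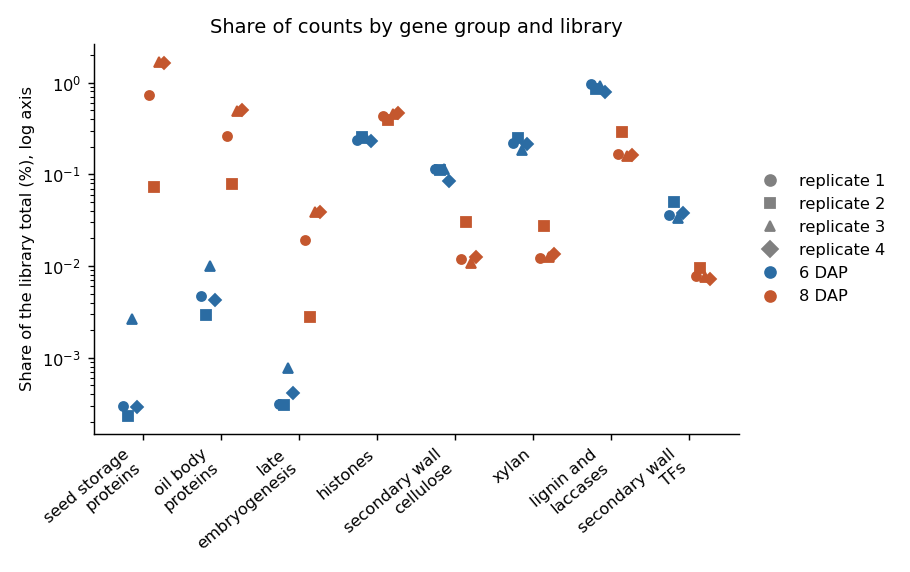
Share of each library's counts (percent, log axis) in 8 gene groups, for 4 libraries of 6 DAP and 4 of 8 DAP; each marker shape is a replicate number. Storage genes run from 0.000231% to 0.00265% at 6 DAP and from 0.0719% to 1.69% at 8 DAP, xylan genes from 0.186% to 0.247% and from 0.0123% to 0.0272%. At 8 DAP, replicate 2 lies nearest to the 6 DAP libraries in the storage, oil body and xylan groups.

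Late embryogenesis abundant (LEA) proteins accompany desiccation. Migut.I00802, of this family, stood at 0.903, 0.571, 0.264 and 0.436 CPM at 6 DAP and at 135, 4.52, 339 and 345 CPM at 8 DAP (log2 fold change 8.53 ± 0.96, FDR 5.27e-06). Migut.J01829 (LEA4-5) stood at 0.0714 to 0.793 CPM and then 9.04 to 96.1 CPM, and the PER1 peroxiredoxin homologue Migut.O00392, without a count at 6 DAP, was at least 138-fold higher. The member not called was Migut.H01438 (DOG1, a dormancy gene), at 0 to 0.214 CPM at 6 DAP and 0 in every 8 DAP library. A pair of further members, among them a second DOG1 homologue, were not tested because of low counts. Outside the lists, Migut.O00289, a homologue of the seed vacuole aquaporin TIP3;1, rose from 0, 0.571, 0.0881 and 0.0872 CPM to 414, 35.4, 752 and 735 CPM (log2 fold change 11.17 ± 0.97, FDR 1.07e-06).

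Regulators of maturation did not move as a block. Among 6 tested members of 8 listed, 3 rose, none fell and 3 were not called, with a median log2 fold change of 2.55. Of all genes, 7.52% rose and 6.77% fell. Migut.D00511, a homologue of the B3 factor ABI3, went from 3.04, 3.28, 5.90 and 3.14 CPM to 27.9, 18.8, 33.4 and 43.5 CPM (log2 fold change 3.01 ± 0.39, FDR 1.26e-04). Migut.B01163 (WRI1) went from 24.3, 22.0, 40.6 and 20.6 CPM to 137, 117, 195 and 208 CPM (log2 fold change 2.61 ± 0.46, FDR 3.37e-04). In both, 6 DAP replicate 3 was the highest of its age and 8 DAP replicate 2 the lowest of its own, and the ages did not overlap.

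The 3 homologues of L1L, a LEC1-like NF-Y subunit, differed. Migut.M01443 rose from 14.5, 8.99, 30.6 and 10.4 CPM to 150.0, 108, 282 and 305 CPM (log2 fold change 3.71 ± 0.49, FDR 2.75e-05). Migut.M01289 stood at 21.6, 26.1, 18.5 and 20.1 CPM at 6 DAP and lower, at 6.66, 10.4, 9.98 and 6.69 CPM, at 8 DAP without overlap, yet it was not called (log2 fold change -1.36 ± 0.42, FDR 0.0197), and nor was Migut.E01594 at 1.85 to 3.50 CPM and 0 to 0.798 CPM (FDR 0.0136). The fit on the 8 libraries alone called both of them lower. The FUS3 homologue Migut.F00019 ranged over 2.38, 2.71, 1.67 and 0.698 CPM and 5.11, 1.51, 14.5 and 20.8 CPM, which overlapped through 8 DAP replicate 2 (FDR 0.0584). The LEC1 homologues were left out by the filter, with at most 15 counts in any of the 8 libraries.

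Fatty acid synthesis genes rose by less. Of 12 tested members 6 rose and none fell, beside 7.52% and 6.77% of all genes, with a median log2 fold change of 1.04. Of the 6 that rose, 3 belonged to the plastid pyruvate dehydrogenase complex, which supplies acetyl-CoA for fatty acid synthesis. Its E2 subunit homologue Migut.C01244 (EMB3003) went from 75.9, 67.8, 96.3 and 65.5 CPM to 354, 291, 491 and 498 CPM (log2 fold change 2.42 ± 0.30, FDR 1.50e-05) and its E1 alpha and E1 beta homologues Migut.D01961 and Migut.D01762 rose by 2.28 ± 0.35 and 1.62 ± 0.28 on the log2 scale. Every 8 DAP library lay above every 6 DAP library in these 3 genes. Migut.B00624, a homologue of a hydroxyacyl-ACP dehydratase of the synthesis cycle, rose from 29.7 to 40.9 CPM to 129.9 to 216 CPM (2.36 ± 0.25, FDR 2.60e-06). The desaturase homologue FAD2 (Migut.D00543) rose by 1.40 ± 0.27 and the enoyl-ACP reductase homologue MOD1 (Migut.D00546) by 1.05 ± 0.24 on the log2 scale, the latter call being lost without 6 DAP replicate 1 or 3 or 8 DAP replicate 1 or 4 (FDR 0.0102 to 0.0155) and with scaling by library totals. Not called were the thioesterase FATB (Migut.D01277, log2 fold change -1.25 ± 0.64), KAS1 (Migut.A00612, -0.59 ± 0.72) and the acyl carrier protein ACP4 (Migut.I00607, -0.16 ± 0.47). These copies had low levels. FATB stood at 7.94 to 12.6 CPM at 6 DAP and 2.65 to 6.48 CPM at 8 DAP. KAS1 stood at 0.164 to 2.43 CPM and 0.621 to 1.62 CPM, and ACP4 at 4.58 to 9.28 CPM and 3.95 to 8.25 CPM. LPAT5 (Migut.B00266, 1.03 ± 0.33), LACS9 (Migut.C01124, 0.68 ± 0.23) and PKP1 (Migut.B00475, 0.54 ± 0.28) were not called either, although these 3 stood higher at 8 DAP without overlap.

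**Figure D4:**
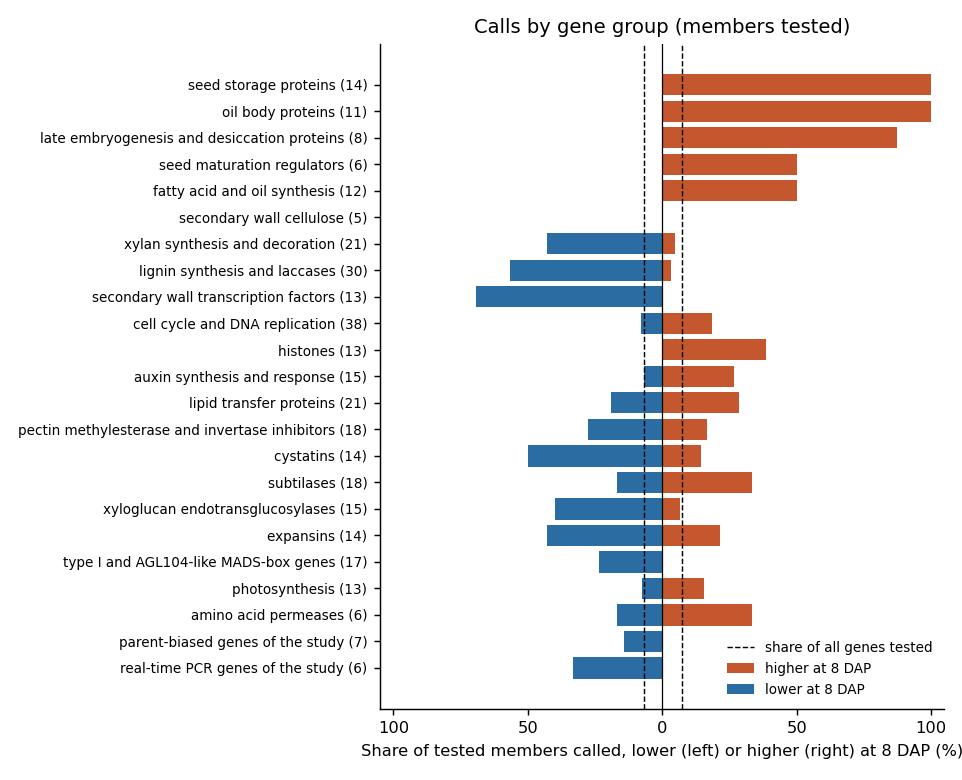
Share of the tested members of each gene group called at FDR 0.01 (number tested in brackets); bars to the right are members higher and bars to the left members lower at 8 DAP, in percent. Dashed lines mark the share of all genes tested, 7.52% higher and 6.77% lower. Reserve groups lie wholly to the right. The xylan, lignin and secondary wall transcription factor groups lie almost wholly to the left, and the secondary wall cellulose group has no called member.

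Secondary wall genes moved the other way. Over the genes for wall cellulose, xylan, lignin and their transcription factors, 35 of 69 tested members fell and 2 rose, beside 6.77% and 7.52% of all genes, with a median log2 fold change of -2.68. These genes together took 1.11% to 1.35% of counts at 6 DAP and 0.189% to 0.357% at 8 DAP. In 51 of the 69 genes 8 DAP replicate 2 was the highest of its age. Most members entered through tables that the study selected on these samples, so the direction is not independent evidence. Members near 0 at the other ages, such as Migut.E01164, passed the filter on CPM through 6 DAP and could hardly have been called higher. Without 6 DAP replicate 3 and 8 DAP replicate 2 together, 9 xylan, 15 lignin and 7 transcription factor genes fell. Neither of 2 tracheary element markers was called. Migut.N02040, a homologue of the xylem cysteine protease XCP2, was at 3.61, 5.92, 2.64 and 3.75 CPM and 10.2, 13.1, 0.637 and 0.304 CPM (FDR 0.51), and the VND7 homologue Migut.C01249 at no more than 0.872 CPM in any of the 8 libraries, near 0 at both ages. The 8 DAP values of XCP2 lay on both sides of the 6 DAP range, so these markers give no direction.

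Of 13 tested homologues of secondary wall transcription factors, 9 fell and none rose, beside 6.77% and 7.52% of all genes. Their median log2 fold change was -2.68. Migut.H01467, a homologue of the NAC factor SND2, stood at 55.0, 83.9, 51.8 and 56.3 CPM at 6 DAP and at 0.183, 0.266, 0 and 0.101 CPM at 8 DAP, the largest fall by the rule used for the largest changes (log2 fold change -8.66 ± 0.97, FDR 5.38e-06). The other SND2 homologue, Migut.M01101, fell less, from 20.1 to 27.1 CPM to 2.23 to 5.52 CPM (log2 fold change -2.64 ± 0.55). Migut.E00625 (NST1, a NAC master switch of fibre walls) went from 21.3, 22.5, 22.7 and 17.1 CPM to 1.28, 2.39, 1.91 and 1.93 CPM (log2 fold change -3.47 ± 0.67, FDR 7.98e-04). MYB83 (Migut.N02315, log2 fold change -2.85 ± 0.93, FDR 0.0272), MYB54 (Migut.D02049, -3.32 ± 1.01, FDR 0.0184) and MYB85 (Migut.A00867, -0.97 ± 0.62, FDR 0.237) were not called. Over single left-out libraries the 9 calls became 5 without 6 DAP replicate 2, 8 DAP replicate 3 or 8 DAP replicate 4, 6 without 6 DAP replicate 1 or 8 DAP replicate 1, and 7 or 8 otherwise.

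The cellulose synthase homologues of secondary walls stood apart between the ages without passing the test. Migut.D00465 (CESA4) stood at 432, 430.1, 426 and 334 CPM against 49.6, 102, 46.9 and 60.9 CPM (log2 fold change -2.64 ± 0.89, FDR 0.0312), Migut.J01374 (CESA7) at 307, 255, 311 and 192 CPM against 28.5, 70.5, 29.2 and 28.5 CPM (FDR 0.0222) and Migut.M01014 (CESA8) at 371, 329.7, 357 and 235 CPM against 34.7, 107, 47.6 and 55.0 CPM (FDR 0.0575). None of the 3 overlapped between the ages, and none was called in the fit on 20 libraries. The fit on the 8 libraries alone called all 3 lower, with and without the maternal plant as a block. At 4 DAP the mean of 3 libraries had been 13.3, 4.12 and 7.26 CPM for CESA4, CESA7 and CESA8.

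Xylan, the main hemicellulose of such walls, showed 9 falls and 1 rise among 21 tested members, beside 6.77% and 7.52% of all genes. Homologues of genes for the xylan chain and its end sequence were among the falls. Migut.K01051 (IRX10) went from 263, 270.4, 262 and 244 CPM to 23.4, 57.0, 21.1 and 26.4 CPM (log2 fold change -3.02 ± 0.60, FDR 0.00111), Migut.J00420 (IRX9) from 75.2 to 107 CPM to 7.65 to 13.6 CPM and Migut.M01813 (IRX8) from 48.2 to 75.8 CPM to 3.61 to 5.48 CPM. Among genes that decorate xylan, the acetyltransferase-like TBL3 homologue Migut.J00143 fell from 188, 219, 159 and 171 CPM to 0.913, 7.09, 2.65 and 0.203 CPM (log2 fold change -6.06 ± 1.08, FDR 4.03e-04). The DUF579 gene Migut.C01347, whose Arabidopsis homologue methylates glucuronic acid side chains, fell from 339 to 479 CPM to 6.57 to 37.0 CPM (-4.80 ± 0.94). IRX7 (Migut.N02563, log2 fold change -1.77 ± 0.92) and Migut.L00176, a homologue of the DUF579 gene IRX15-L (-3.61 ± 1.07, FDR 0.0161), were not called although their ages did not overlap. The rise was in Migut.B00370, from the same DUF579 homologue group as Migut.L00176, at 0.329 to 1.13 CPM and then 2.84 to 13.6 CPM (FDR 0.00146). With members at 0 in 1 age set to their bounds, the median of the list was -2.27 in place of -3.02.

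Lignin genes fell in 17 of 30 tested members, and 1 rose, beside 6.77% and 7.52% of all genes. Several monolignol steps were among the falls. The caffeoyl-CoA methyltransferase homologue Migut.B00364 (CCoAOMT1) stood at 1029, 1121, 961 and 799 CPM and 138, 197, 162 and 144 CPM (log2 fold change -2.61 ± 0.42, FDR 1.81e-04), the cinnamyl alcohol dehydrogenase Migut.B00391 (CAD4) at 601 to 934 CPM and 89.4 to 121 CPM (-2.95 ± 0.33) and the ferulate hydroxylase Migut.H02485 (FAH1) at 211 to 312 CPM and 15.2 to 23.9 CPM (-3.80 ± 0.46). Migut.F00144, a homologue of the O-methyltransferase OMT1, was among the 5 largest losses in CPM, from 2743, 1941, 2262 and 2127 CPM to 439, 806, 479 and 486 CPM (-2.04 ± 0.45, FDR 0.00238), and its call was lost without 8 DAP replicate 1, 3 or 4 (FDR 0.0106 to 0.0113). The CCR1 homologue Migut.D01122 did not pass the test (-0.78 ± 0.59).

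Laccases polymerise lignin in the wall. Migut.F01429 (LAC4) went from 334, 313, 344 and 302 CPM to 10.8, 29.9, 4.04 and 5.07 CPM (log2 fold change -4.69 ± 1.07, FDR 0.00415) and Migut.N01245 (LAC11) from 50.03 to 56.9 CPM to 0 to 1.68 CPM (-6.0 ± 1.26, FDR 0.00162). Migut.J00316 (LAC17) held 1168, 811, 1169.8 and 859 CPM at 6 DAP and 57.7, 362, 61.5 and 46.5 CPM at 8 DAP and was not called (log2 fold change -2.92 ± 1.0, FDR 0.0324), with 8 DAP replicate 2 far above the other 8 DAP libraries. The call of LAC4 was lost without 8 DAP replicate 1, 3 or 4 (FDR 0.0156 to 0.0183). Without 8 DAP replicate 2, 19 lignin members were called lower, whereas 10 were without 8 DAP replicate 3 and 11 without 8 DAP replicate 1 or 4. The rising member, whose call was lost without 6 DAP replicate 2 or 4 or 8 DAP replicate 3 or 4 (FDR 0.0108 to 0.0165), was Migut.J01620, 1 of 3 homologues of the hydroxylase CYP98A3, at 85.7, 61.0, 97.6 and 60.0 CPM and 141, 178, 212 and 240.2 CPM (1.34 ± 0.31, FDR 0.00342). The other CYP98A3 homologues Migut.N01863 (-1.40 ± 0.43) and Migut.O00792 (0.14 ± 0.79) were not called.

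**Figure D5:**
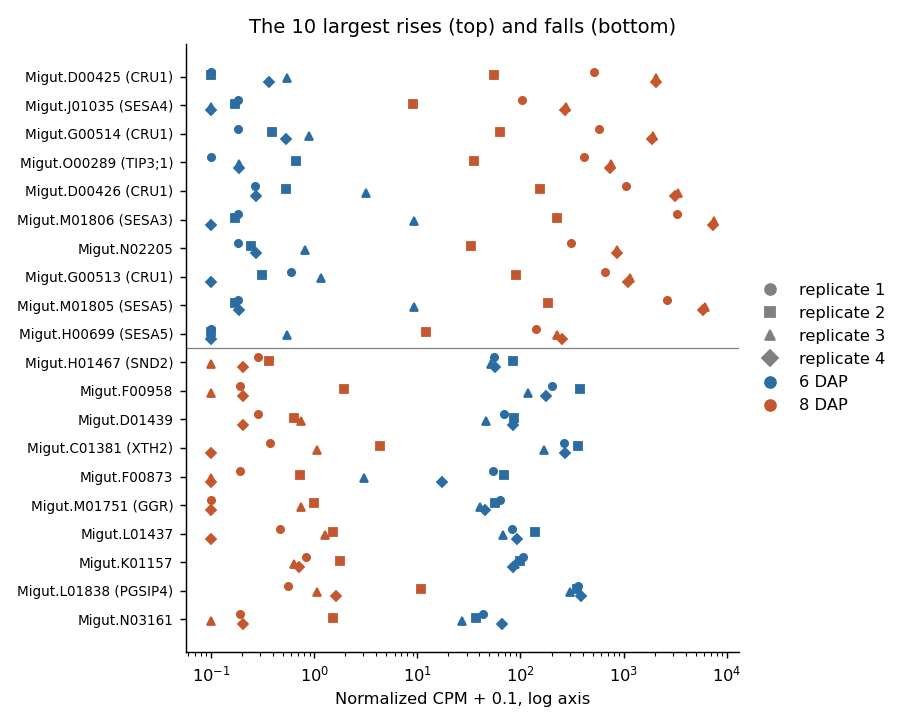
Normalised CPM + 0.1 (log axis) in each of the 8 libraries for the 10 largest rises (top) and 10 largest falls (bottom) among called genes without overlap and with a group mean of at least 30 CPM; colours are ages and shapes replicate numbers, and brackets give the Arabidopsis homologue. Rises start below 10 CPM in every 6 DAP library, and 8 DAP replicate 2 lies lowest of its age in all 10.

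Among the 10 largest rises, 8 were members of the storage protein list. The others were the TIP3;1 homologue and Migut.N02205 (homologue of AT1G03890, a locus not on that list), at 0.0821, 0.143, 0.705 and 0.174 CPM and 306, 33.2, 856 and 861 CPM. The 10 largest falls were more mixed. Behind SND2 came Migut.F00958, of the plant self-incompatibility protein S1 family, at 202, 377, 118 and 178 CPM and 0.0913, 1.86, 0 and 0.101 CPM (log2 fold change -8.64 ± 1.28), a glycosyltransferase family 61 gene, Migut.D01439 (-7.59 ± 0.86), the xyloglucan enzyme homologue Migut.C01381 (XTH2, -7.56 ± 0.75), a geranylgeranyl reductase homologue, Migut.M01751 (GGR, -7.03 ± 1.01), the protein kinase Migut.L01437 (-6.98 ± 1.12), Migut.K01157 (-6.71 ± 1.06) and Migut.L01838 (PGSIP4, -6.67 ± 1.17). Migut.F00873 and Migut.N03161, which have no homologue in the tables, had log2 fold changes of -7.48 ± 1.35 and -6.64 ± 0.88.

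Of the 5 largest gains in CPM, 2 were lipid transfer proteins, small secreted carriers of lipids. Migut.M01356 (LTP4) rose from 338, 94.5, 2099 and 593 CPM to 7449, 6491, 7155 and 7083 CPM (log2 fold change 3.17 ± 0.76, FDR 0.00421) and Migut.M01354 from 60.4, 11.8, 875 and 221 CPM to 4974, 2367, 4765 and 4866 CPM (3.86 ± 0.87, FDR 0.00284). In both, 6 DAP replicate 3 was the highest and replicate 2 the lowest of the 6 DAP libraries, many times apart. Migut.M01349, without a homologue in the tables, gained most (541, 144, 3069 and 893 CPM against 11755, 8481, 11518 and 11354 CPM, FDR 0.00549), and Migut.N00124 (728 to 1178 CPM against 3767 to 8004 CPM) and SESA3 completed the 5. These calls depended on single libraries. That of Migut.M01356 was lost without 6 DAP replicate 1, 2 or 4 (FDR 0.0112 to 0.0187), that of Migut.M01354 without 6 DAP replicate 1 or 4 (FDR 0.0112 to 0.0134) and that of Migut.M01349 without 6 DAP replicate 1, 2 or 4 or 8 DAP replicate 1, 3 or 4 (FDR 0.0118 to 0.0231). The list as a whole was split. Of 21 tested lipid transfer genes 6 rose and 4 fell, beside 7.52% and 6.77% of all genes, and 2 had no count in any of the 8 libraries. Falling members included Migut.M01355 (LTP12), from 364, 505, 134 and 209 CPM to 13.4, 24.7, 6.90 and 7.71 CPM (-4.52 ± 0.73, FDR 1.68e-04), and Migut.M01350 (LTP12, -4.49 ± 0.81), whose numbers lie beside those of the rising genes.

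The largest losses in CPM were led by Migut.C00500, a homologue of the subtilisin-like protease ARA12, which was at 14371, 9441, 10946 and 12463 CPM and then at 5052, 5738, 4567 and 4491 CPM (log2 fold change -1.25 ± 0.33, FDR 0.00913), a call lost without any single library (FDR 0.0133 to 0.0321). The serine carboxypeptidase homologue Migut.B00316 (scpl40) fell from 8130.4, 4999, 4311 and 6971 CPM to 432, 910.2, 312 and 321 CPM (-3.63 ± 0.45, FDR 1.54e-05). Migut.L00257 and Migut.E01377, without homologues in the tables, went from 4514 to 9040.5 CPM to 416 to 1439 CPM (-3.13 ± 0.47) and from 4447 to 6725 CPM to 583 to 1599.7 CPM (-2.65 ± 0.49). The ages did not overlap in any of these 4 genes. Subtilases as a list rose in 6 and fell in 3 of 18 tested members, beside 7.52% and 6.77% of all genes, and 3 rose with scaling by library totals. The rising ones included Migut.M01372, a homologue of ALE1, the endosperm protease needed for the embryo surface, at 20.2, 16.5, 19.2 and 10.9 CPM and 148, 104, 380.0 and 339 CPM (3.86 ± 0.59, FDR 1.03e-04), and Migut.D00129 (3.90 ± 0.57). The SDD1 homologue Migut.E01033, at 6.96 to 20.1 CPM at 6 DAP, had no count at 8 DAP and was at least 188-fold lower.

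Inhibitors of proteases and of pectin enzymes moved in both directions. Of 14 cystatins, inhibitors of cysteine proteases, 7 fell and 2 rose, beside 6.77% and 7.52% of all genes, with a median log2 fold change of -4.04. Without 8 DAP replicate 4, 4 fell and 1 rose, without 6 DAP replicate 4 none rose, and without 8 DAP replicate 2, 9 fell. Migut.K01192 stood at 702, 681, 647 and 552 CPM and 1.46, 90.9, 5.31 and 4.66 CPM (-4.65 ± 1.06, FDR 0.00299), and 8 DAP replicate 2 was the highest of its age. The call was lost without 8 DAP replicate 3 or 4 (FDR 0.0126 to 0.0131). Migut.H02225 rose from 32.4 to 95.9 CPM to 236 to 299 CPM (2.12 ± 0.47) and lost its call without 6 DAP replicate 2 or 4 (FDR 0.0135 to 0.0141). Of 18 tested inhibitors of pectin methylesterase and invertase, 5 fell and 3 rose, beside 6.77% and 7.52% of all genes. Without overlap, 6 stood lower and 7 higher at 8 DAP, beside 25.3% and 23.2% of all genes. The balance turned with the fit. On the 8 libraries alone 3 fell and 7 rose (2 and 8 with the maternal plant as a block), beside 18.2% and 18.8% of all genes without the block. By contrast, 1 rose with scaling by library totals or without any single library other than 6 DAP replicate 3, where 2 rose. Without 6 DAP replicate 1 or 2 or 8 DAP replicate 1, 3 or 4, 3 fell. The PMEI2 homologue Migut.A00119 fell from 155, 182, 126 and 134 CPM to 1.55, 17.7, 0.956 and 0.203 CPM (-4.85 ± 0.87, FDR 4.49e-04), while PMEI1 (Migut.A00117), at 789, 565, 629 and 575 CPM and 3.10, 153, 6.90 and 9.43 CPM, was not called (FDR 0.0172).

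Wall-loosening enzymes moved in both directions. Of 14 tested expansins, which relax growing walls, 6 fell and 3 rose, beside 6.77% and 7.52% of all genes. There was 1 rise under scaling by library totals or without 6 DAP replicate 1, 2 or 3 or 8 DAP replicate 3 or 4, and the 6 falls held in each of these fits. The beta-expansin homologues Migut.F01690 (426 to 839 CPM against 142 to 166 CPM, -2.21 ± 0.39) and Migut.F01692 (361 to 665 CPM against 61.8 to 175 CPM, -2.34 ± 0.40) were among those that fell. Of 15 tested xyloglucan endotransglucosylase genes 6 fell and 1 rose, beside 6.77% and 7.52% of all genes. The rise was lost with scaling by library totals and without 6 DAP replicate 1 or 3 or 8 DAP replicate 1 or 2. On the 8 libraries alone, with or without the block, and with DESeq2 4 rose, where 18.8% of all genes did on the 8 libraries without the block. Without overlap, 4 stood higher and 7 lower at 8 DAP, beside 23.2% and 25.3% of all genes. Migut.C01381 (XTH2) went from 264, 362, 168 and 268 CPM to 0.274, 4.26, 0.956 and 0 CPM, whereas Migut.A01143, also an XTH2 homologue, was higher at 8 DAP without overlap (192, 136, 301 and 173 CPM against 1016, 798, 649 and 709.9 CPM) and was not called (FDR 0.0169).

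Genes for histones, which pack DNA, stood higher at 8 DAP in all 13 tested members, with either scaling. The 4 libraries of an age did not overlap in any of the 13 tested genes, beside 23.2% of all genes that stood higher without overlap. In the fit on 20 libraries 5 rose and none fell, beside 7.52% and 6.77% of all genes. In the fit on 8 libraries all 13 rose, where 18.8% of all genes did. The median log2 fold change was 1.34, and 0.94 with scaling by library totals. The H3 homologue Migut.D00565 went from 146, 111, 149 and 104 CPM to 461, 332, 559 and 562 CPM (1.91 ± 0.43, FDR 0.00271), the H2B homologue Migut.D02296 from 302 to 330.4 CPM to 787 to 999.9 CPM (1.45 ± 0.23, FDR 1.60e-04), and the H4 homologues Migut.D02154 and Migut.J00346 rose by 1.63 ± 0.34 and 1.43 ± 0.37. Homologues of the H2A.Z variants HTA9 (Migut.A00303, 0.61 ± 0.29) and HTA11 (Migut.D00345, 0.92 ± 0.34) were not among the 5 called. With the maternal plant as a block 9 histone genes were called, and 3 were without 6 DAP replicate 2 and 2 without 6 DAP replicate 4. The call of Migut.D00565 was lost without 6 DAP replicate 2 or 4 (FDR 0.0114 to 0.0127) and that of Migut.J00346 without 6 DAP replicate 1, 2, 3 or 4 or 8 DAP replicate 1, 3 or 4 (FDR 0.0142 to 0.0219).

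Genes of the cell cycle and DNA replication moved in both directions. Of 38 tested members 7 rose, 3 fell and 28 were not called, where 7.52% of all genes rose and 6.77% fell. With scaling by library totals 2 rose and 1 fell. On the 8 libraries alone 12 rose and 7 fell (10 and 7 with the block), where 18.8% and 18.2% of all genes did, and 14 stood higher and 8 lower without overlap, beside 23.2% and 25.3% of all genes. The sliding clamp PCNA2 (Migut.D02143) rose from 189, 154, 192 and 147 CPM to 411, 310.2, 401 and 415 CPM (1.17 ± 0.31, FDR 0.0087). Also higher were the kinase CDKB1;2 (Migut.G00709, 1.41 ± 0.29), the replication factor SLD5 (Migut.G00073, 1.15 ± 0.26) and the cyclins CYCD3;2 (Migut.H00399, 0.93 ± 0.23) and CYCD6;1 (Migut.M01227, 1.82 ± 0.42). The mitotic cyclin CYCB2;4 (Migut.C00388) fell from 70.8, 63.5, 53.6 and 73.4 CPM to 39.3, 27.9, 24.1 and 25.6 CPM (-1.16 ± 0.26, FDR 0.00297), as did topoisomerase TOPII (Migut.B01281, -1.06 ± 0.29) and the phragmoplast kinesin POK2 (Migut.B00303, -1.35 ± 0.35). Left-out libraries thinned these calls. Without 6 DAP replicate 1, 2 or 4, 2 rose, without 6 DAP replicate 3 or 8 DAP replicate 3 or 4, 3 rose, and without 8 DAP replicate 1, 4 rose. None fell without 6 DAP replicate 1 or 4 or 8 DAP replicate 3 or 4, and without 6 DAP replicate 3 and 8 DAP replicate 2 together 3 rose and none fell. PCNA2 lost its call without 6 DAP replicate 1, 2, 3 or 4 or 8 DAP replicate 1, 3 or 4 (FDR 0.016 to 0.0323) and CYCB2;4 without 6 DAP replicate 1 or 4 or 8 DAP replicate 3 or 4 (FDR 0.0108 to 0.0149).

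In the auxin list, 4 of 15 tested members rose and 1 fell, beside 7.52% and 6.77% of all genes. The largest rises were in enzymes of the pathway from tryptophan to auxin. The aminotransferase homologue Migut.D01989 (TAR2) was at 0.164, 0.0714, 6.17 and 0.523 CPM at 6 DAP and at 63.1, 34.1, 83.1 and 68.6 CPM at 8 DAP (5.19 ± 0.96, FDR 7.69e-04), and the flavin monooxygenase homologue Migut.A00287 (YUC4), which acts in the next step, at 0.164, 0, 5.90 and 0.698 CPM and 87.7, 52.8, 109 and 114 CPM (5.77 ± 0.93, FDR 3.97e-04). At 6 DAP both were near 0 except in replicate 3, and 8 DAP replicate 2 was the lowest of its age. Other auxin synthesis homologues did not follow. YUC6 (Migut.A00240) stood at 1.66 to 3.64 CPM and 0.365 to 0.850 CPM (FDR 0.0491) and YUC3 (Migut.G00598) at no more than 0.246 CPM. The repressor IAA16 (Migut.D00373, 1.45 ± 0.26) and the conjugating enzyme GH3.1 (Migut.B00405, 2.72 ± 0.41) rose. Of 3 ARF19 homologues, Migut.L01914 fell from 12.95 to 22.2 CPM to 2.92 to 10.4 CPM (-1.52 ± 0.32, FDR 0.00177), and Migut.L01587 (0.13 ± 0.28) and Migut.J00834 (-0.31 ± 0.31) were not called.

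Type I MADS-box factors act in the female gametophyte and endosperm of Arabidopsis. Of 17 tested members, AGL104-like genes included, 4 fell and none rose, beside 6.77% and 7.52% of all genes. Migut.B01455, a homologue of AGL80 (FEM111), which is needed in the Arabidopsis central cell, stood at 22.2, 32.8, 8.81 and 15.2 CPM at 6 DAP and at 0, 0.355, 0 and 0 CPM at 8 DAP (-7.56 ± 0.90, FDR 9.82e-06). The other AGL80 homologue, Migut.C01325, which the study's primer table names PHERES1, was at 14.2, 14.9, 18.2 and 13.2 CPM and 18.4, 15.7, 10.6 and 10.0 CPM and was not called (-0.14 ± 0.61, FDR 0.879). The AGL104 homologue Migut.L00101, at 8.62, 14.1, 7.31 and 9.25 CPM at 6 DAP, had no count in any 8 DAP library and was at least 139-fold lower (FDR 4.17e-05). Migut.B01089, a MADS-box homologue of AT3G05860, fell from 7.75 to 14.6 CPM to 0 to 1.33 CPM (-4.86 ± 0.75) and Migut.L01896, a homologue of the same locus, from 0.969 to 3.93 CPM to 0 to 0.177 CPM (-4.86 ± 1.06). Migut.I00404 (AGL29, 0.27 ± 0.48) and Migut.N01481 (0.46 ± 0.30) were not called. The 4 falls held without any single library.

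The study designed real-time PCR primers for 6 genes of interest. Of these 2, Migut.B01455 and Migut.A00696 (named DP1 by the study), fell between 6 and 8 DAP, beside 6.77% of all genes. Migut.A00696, of the dirigent-like family, was at 26.2, 33.3, 22.7 and 10.0 CPM and 0, 2.39, 2.76 and 0.304 CPM (-4.08 ± 0.88, FDR 0.00198), with 6 DAP replicate 4 the lowest of its age. The study ran this PCR on independently collected RNA and reported a close match to the sequencing trends for all 6 genes. Its PCR values were not used here. The primers for Migut.B01455 and Migut.A00696 are shown because they mark the transcripts behind the falls and allow them to be measured again. They are given from 5′ to 3′ in lower case, as forward and reverse primer.
FEM111 forward: tgctgccgccgtataatc
FEM111 reverse: catcagggccagttccag
DP1 forward: gatgaacaagaccagggacat
DP1 reverse: atctccttccaaagcatccg
The other 4 genes were not called. The Polycomb gene FIE (Migut.M01812) stood at 30.1 to 35.5 CPM and 24.3 to 30.2 CPM (-0.26 ± 0.21), the endosperm factor ZHOUPI (Migut.N01183) at 7.59 to 10.7 CPM and 9.98 to 13.1 CPM (0.36 ± 0.48), ULT1 (Migut.E00987) at 0.785 to 4.49 CPM and 0.743 to 4.17 CPM (0.22 ± 0.73), and Migut.C01325 as above.

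The study chose 7 genes with a bias toward the M. guttatus allele for validation. Of these 1 fell, beside 6.77% of all genes, and 6 were not called. It reported imprinting for Migut.E01117, Migut.H00744, Migut.I00545 and Migut.N01317, and allele-specific expression for the rest. The fall was Migut.L01896, which the study did not find imprinted. The methyl-binding protein homologue MBD13 (Migut.E01117) stood at 32.7, 38.1, 31.1 and 27.7 CPM and 24.6, 21.1, 37.2 and 32.5 CPM (-0.17 ± 0.22, FDR 0.584). The paper describes a decline of MBD13 at 8 DAP and a significant change over its whole series. Between 6 and 8 DAP its libraries overlapped here and no fall was called. ATXR5 (Migut.H00744), a histone methyltransferase homologue, stood at 3.26 to 7.14 CPM and 2.33 to 6.12 CPM (-0.52 ± 0.42), and Migut.I00545 at 2.55 to 3.61 CPM and 3.56 to 5.68 CPM (0.54 ± 0.55). Migut.I00995 was lower at 8 DAP in all libraries, at 84.2, 83.4, 94.8 and 113 CPM and 69.6, 49.6, 24.7 and 16.9 CPM, and missed the threshold (-1.22 ± 0.52, FDR 0.0777). The counts here are summed over both parental alleles and say nothing on the bias itself.

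Markers of the seed compartments were followed beside these groups, and their calls stand beside 7.52% of all genes higher and 6.77% lower. Embryo markers (5 tested of 7; 2 rose, none fell), which are also among the maturation regulators above, summed to 36.3 to 58.5 CPM at 6 DAP and 140 to 376 CPM at 8 DAP, of which the L1L homologue Migut.M01443 held 8.99 to 30.6 CPM and 108 to 305 CPM. The L1L homologues Migut.M01289 and Migut.E01594 stood lower at 8 DAP, as given above. Endosperm markers (10 tested of 11; 2 rose, 1 fell) summed to 50.2 to 78.2 CPM and 139.7 to 412 CPM, of which the ALE1 homologue held 10.9 to 20.2 CPM and 104 to 380.0 CPM. Without it the sum was 39.3 to 61.7 CPM and 31.7 to 39.2 CPM, and the AGL62 homologues stayed at or below 2.22 CPM in every library. The second ZHOUPI homologue, Migut.B00361, rose from 1.07, 0.928, 3.701 and 1.22 CPM to 7.67, 5.23, 8.07 and 12.7 CPM (2.28 ± 0.57, FDR 0.00993), a call lost without 6 DAP replicate 1, 2 or 4 or 8 DAP replicate 1, 2, 3 or 4 (FDR 0.0113 to 0.0372), where Migut.N01183 was not called. Seed coat markers (9 tested; 2 rose, 3 fell) summed to 933 to 2530 CPM and 3342 to 3768 CPM. Migut.D01697, 1 of 4 homologues of the flavonoid hydroxylase TT7, held most of that sum at 8 DAP. At 6 DAP it did so in replicate 3 but not in replicates 1, 2 and 4. It stood at 659, 332, 1418 and 495 CPM and 2836, 3087, 2682 and 2713 CPM (1.96 ± 0.38, FDR 8.10e-04). By contrast Migut.C01354, also a TT7 homologue, fell from 61.0 to 97.9 CPM to 3.72 to 20.3 CPM (-3.30 ± 0.48). Without Migut.D01697 the sum was 601 to 1112 CPM and 558 to 682 CPM. The chalcone synthase homologue TT4 (Migut.G00630) was at no more than 0.637 CPM in any library. The higher embryo and endosperm sums at 8 DAP thus lay mostly in 1 gene each, with LEC1 among the embryo markers left out for low counts, and their part in the changes above was not tested.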

How the data were processed

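RNA was sequenced from whole hybrid seeds with a strand-marking kit. Per the study's methods, the authors trimmed reads with Trimmomatic, aligned them with STAR to a pseudo-reference of each parent, merged both alignments and counted uniquely mapped proper pairs per gene on the M. guttatus v2.0 annotation. The deposited values are raw counts for 28140 genes, 1 file per library, and versions of these tools are not given in the sources used here.

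Counts were analysed in R 4.3.3 with edgeR 4.0.16 (TMM scaling, robust quasi-likelihood test, 1 coefficient per time point over 20 libraries, Benjamini-Hochberg FDR of 0.01). Genes needed a CPM above 1 in at least 3 of the 20 libraries, which left 20242. Alternatives were DESeq2 1.42.0, other scalings, filters and thresholds, the 8 libraries alone, the maternal plant as a block, and each library left out. A simulation with known fold changes was used to check the fit. Single values per library were compared by an exact permutation test (SciPy 1.17.1). Totals of 11002428 to 13738213 counts limit precision for genes of a few counts, and a count of 0 was read as below 3 counts over the 4 libraries of an age.

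Named genes were the 10 largest rises and 10 largest falls by log2 fold change and the 5 largest gains and losses in mean CPM. These came from calls without overlap between the ages and with a group mean of at least 30 CPM. Also named were members of 23 gene lists and 5 marker lists, the 6 real-time PCR genes and the study's 7 genes tested for allele bias. Lists were drawn from Arabidopsis homologues in the study's tables, which cover 4762 genes, of which 1823 came from a table not selected by expression. Members and lists were chosen with earlier results of these data known. Log2 fold changes come from the fit, and where a group had no counts a bound is given in their place. Counts of copies with near-identical sequence may be shared between copies, and this was not tested.

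By the study's methods, replicate numbers 1 to 4 name the same maternal plants at both ages. Deviations from the group means correlated at -0.00279, 0.0417, 0.0737 and -0.0467 for equal numbers and at -0.127 to 0.0918 for unequal numbers. No 2 libraries agreed within sampling noise.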

Additional observations from a re-analysis of the deposited data

Results flagged for a closer look

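Among 68 sets of 4 libraries (29 named genes at each age and further values per library), 15 held a library far from the other 3 by Dixon's ratio. That ratio flags about 1 in 20 sets of independent, normally distributed values, which levels near 0 are not. At 6 DAP the highest library was replicate 3 for the cruciferin homologue Migut.D00426 (3.08 CPM), the 2S albumin homologues Migut.M01806 (9.25 CPM), Migut.M01805 (9.16 CPM) and Migut.H00699 (0.441 CPM) and for Migut.N02205 (0.705 CPM). It was replicate 2 for the TIP3;1 homologue Migut.O00289 (0.571 CPM) and the SND2 homologue Migut.H01467 (83.9 CPM). At 8 DAP replicate 2 stood apart in all 8 cases. It was highest among genes that fell, with 1.86 CPM for Migut.F00958, 0.621 CPM for Migut.F00873, 10.7 CPM for the PGSIP4 homologue Migut.L01838, 1.42 CPM for Migut.N03161, 1599.7 CPM for Migut.E01377 and 806 CPM for the OMT1 homologue Migut.F00144. It was lowest among genes that rose, with 8480.6 CPM for Migut.M01349 and 2367 CPM for Migut.M01354. In 13 of the 15 sets the library was therefore 6 DAP replicate 3 or 8 DAP replicate 2, and each lay toward the other age. The genes were chosen for large changes, and where an age was near 0 a far library could lie only toward the other age. The direction in those sets is therefore no separate evidence on these libraries.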

How the results depend on the processing

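The count of 2892 changed genes (1522 higher, 1370 lower) became 7480 (3800 and 3680) in the 8 libraries alone, 6566 (3298 and 3268) in the 8 libraries with the replicate block, 4414 (2338 and 2076) with DESeq2 and 6013 (3012 and 3001) at an FDR of 0.05. Falls numbered 2112 with the replicate block over 20 libraries and 2172 with the likelihood ratio test, and rises 905 with scaling by library totals. Over single left-out libraries the count ran from 1768 to 2708, rises from 859 to 1467 and falls from 822 to 1241. The common biological coefficient of variation was 0.391 over 20 libraries and 0.248 over the 8, while fewer samples enter each left-out fit.

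The difference in genes detected (-834) was -258.5 with TMM-scaled CPM (p = 0.0857, exact permutation test), and -742.25 to -946.25 over left-out libraries, where 3 against 4 cannot go below p = 0.0571. Paired by replicate number the difference of -834 had an exact p of 0.125, the smallest that 4 pairs allow. The share of the 100 most abundant genes differed by 2.03 percentage points, by -1.24 over 10 genes and by 7.44 over 500 genes (p = 0.0286, exact permutation test), with left-out libraries giving 1.48 to 2.54. The storage and oil body share differed by 1.36 percentage points and by 1.08 to 1.76 over left-out libraries.

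Of 332 tested list members 161 were called, and 124 to 209 over 21 alternatives. Of the 29 named by size of change 25 to 29 were. No gene of either kind that was called changed direction under any of the 21. With the replicate block over 20 libraries 175 list members and all 29 named genes were called. By list it moved rises from 5 to 9 in histones, from 2 to 5 in photosynthesis genes, from 1 to 3 in green tissue markers and from 1 to 2 in xylan genes and xyloglucan endotransglucosylases, and falls from 1 to 2 in auxin genes, and no other list count by over 1.5 times.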

Other observations

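Photosynthesis genes gave mixed values. Of 13 tested members 2 rose and 1 fell, beside 7.52% and 6.77% of all genes. With the maternal plant as a block 5 rose, in a fit that called 4241 genes in place of 2892. Their median log2 fold change was 0.25 and, with scaling by library totals, -0.13. The ferredoxin homologue Migut.B00811 (FED A) stood at 666, 671, 864 and 683 CPM at 6 DAP and at 1702, 2107, 2119 and 2042 CPM at 8 DAP (1.47 ± 0.39 on the log2 scale, FDR 0.00886 in edgeR's quasi-likelihood test). The plastocyanin homologue Migut.C00904 (PETE1) stood at 13.5, 15.4, 21.0 and 14.4 CPM and 41.7, 56.9, 52.6 and 75.6 CPM (1.82 ± 0.40, FDR 0.00231). Without 6 DAP replicate 1 or 4 no member was called higher. The chlorophyll b synthesis homologue Migut.C01130 (CAO) fell from 35.7 to 45.8 CPM to 19.3 to 22.9 CPM (-0.97 ± 0.19, FDR 9.49e-04). The light-harvesting homologue Migut.B00625 (LHCB6) was at 412, 433, 663 and 383 CPM and 919, 1257, 1331 and 1315 CPM and was not called (FDR 0.012). The 4 green tissue markers summed to 407 to 695.9 CPM at 6 DAP and to 977 to 1408 CPM at 8 DAP.

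Amino acid permeases import nitrogen into growing tissue. Of 6 tested members 2 rose and 1 fell, beside 7.52% and 6.77% of all genes. None rose with scaling by library totals and 1 without 6 DAP replicate 1, 3 or 4 or 8 DAP replicate 3 or 4. Migut.A00182, a homologue of AAP8, which supplies Arabidopsis seeds, was at 1.40, 1.499, 8.72 and 3.58 CPM and 28.7, 20.7, 27.1 and 22.1 CPM (2.70 ± 0.58, FDR 0.002), with 6 DAP replicate 3 the highest of its age. Of the AAP6 homologues, Migut.N01123 fell from 35.6, 43.2, 22.0 and 39.9 CPM to 8.76, 8.69, 6.69 and 6.49 CPM (-2.20 ± 0.35, FDR 1.42e-04) and Migut.C00424 stood at 13. to 36.9 CPM and 23.8 to 30.3 CPM (FDR 0.694). Of the AAP3 homologues, Migut.H00819 rose from 0.529 to 2.00 CPM to 3.47 to 8.31 CPM (2.53 ± 0.63, FDR 0.00604) and Migut.C01056 stood at 11.9 to 46.7 CPM and 28.0 to 32.1 CPM (FDR 0.7).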
